A study of Mus musculus with 72 samples.

Results

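Loss of the liver clock was compared between mice with and without microbes, and the genes described here are those whose response to clock loss differed between these 2 microbial states. For each gene, the genotype effect was the log2 ratio of clock-deficient over wild-type livers, and the difference in genotype effect was the value in germ-free mice minus the value in conventional mice, with time of day as a factor. A negative difference therefore means a lower ratio in germ-free mice, and a positive difference a higher one. Of 13479 genes tested in 68 of the 72 libraries, 63 had a difference past an adjusted p of 0.05 (the quasi-likelihood F test of edgeR, adjusted after Benjamini and Hochberg over all genes, which gave every adjusted p below unless another tool is named), which is 0.467% of the genes tested. The difference was higher in germ-free mice for 26 genes (0.193%) and lower for 37 (0.275%). The 37 included drug- and ester-metabolizing enzymes (Cyp3a11, Ces2a and the adjoining Ces1d, Ces1e, Ces1f and Ces1g), conjugating enzymes (Nat8, Ugt1a9 and Gstm3) and enzymes of lipid metabolism (Me1, Acaa1b and Ehhadh), and the 26 included the apolipoprotein Apoa4 and the dehydrogenase Sdr9c7. Cyp3a11 had the smallest p, with a genotype effect that did not pass the test in conventional mice and a level 3.67-fold lower without the clock in germ-free mice, in libraries left after a rule that set aside 2 libraries with outlying Cyp3a11.

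All animals were male mice on a C57BL/6 background that carried floxed alleles of Bmal1 (gene symbol Arntl) and were 10 to 14 weeks old when acclimatization to single housing began. Wild-type (WT) mice were Bmal1 fl/fl without Cre, and L-Bmal1-KO mice (LKO) were Bmal1 fl/fl with Albumin-Cre. In Albumin-Cre mice an albumin promoter drives recombination chiefly in hepatocytes, and liver cells in which Cre is not active stay floxed but intact. Specific pathogen-free (SPF) mice had a conventional microbiota, while germ-free (GF) mice came from a rederived line kept in flexible film isolators, and all were fed autoclaved chow ad libitum under a 12:12 light-dark cycle. Livers were taken at zeitgeber times (ZT) 2, 6, 10, 14, 18 and 22 hours after lights on, from 3 mice per group and time, and bulk RNA was sequenced, with 1 mouse per library. Microbial state went together with colony and housing, so those cannot be told apart from the absence of microbes.

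BMAL1 is the activator that pairs with CLOCK or NPAS2 on E-box DNA to drive the Per, Cry and Rev-erb repressors and, through the D-box factor DBP and its relatives, much of the daily output of the liver. Microbes reach the liver through bile acids, short-chain fatty acids and other products carried by the portal vein, some of which are ligands of nuclear receptors that control drug metabolism. Carboxylesterases, cytochromes P450 and conjugating enzymes in hepatocytes process these compounds together with dietary lipids and drugs.

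The promoters of 4 of the 63 genes are shown because they hold a motif through which the clock or its D-box output factors can act. Each runs from 250 bases before to 50 bases after the annotated start, is read 5′ to 3′ on the gene's own strand from RefSeq on GRCm38.p6, and has its motif in capitals. The Gpx6 promoter (chr13:21311953-21312252, plus strand) holds the E-box CACGTG, 121 bases before the start. The D-box TTATGTAA stood 81 bases before the start of Ces1e (chr8:93229570-93229869, minus strand) and 232 bases before that of Ces1g (chr8:93337160-93337459, minus strand). The Alb promoter (chr5:90460620-90460919, plus strand) had 2 D-box matches, the first of them 223 bases before the start. The D-box promoters were chosen for printing after the matches were seen.
Gpx6: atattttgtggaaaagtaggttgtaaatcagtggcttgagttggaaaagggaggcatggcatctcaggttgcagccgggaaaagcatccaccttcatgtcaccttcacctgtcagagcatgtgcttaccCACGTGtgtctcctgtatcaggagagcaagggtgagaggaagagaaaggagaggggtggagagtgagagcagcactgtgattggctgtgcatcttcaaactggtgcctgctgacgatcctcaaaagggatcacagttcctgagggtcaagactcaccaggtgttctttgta
Ces1e: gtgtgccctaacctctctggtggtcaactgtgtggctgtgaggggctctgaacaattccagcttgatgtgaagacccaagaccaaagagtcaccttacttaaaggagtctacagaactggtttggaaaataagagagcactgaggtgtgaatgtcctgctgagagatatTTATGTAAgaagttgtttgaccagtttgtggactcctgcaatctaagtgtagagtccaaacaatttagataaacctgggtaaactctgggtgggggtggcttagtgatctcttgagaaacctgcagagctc
Ces1g: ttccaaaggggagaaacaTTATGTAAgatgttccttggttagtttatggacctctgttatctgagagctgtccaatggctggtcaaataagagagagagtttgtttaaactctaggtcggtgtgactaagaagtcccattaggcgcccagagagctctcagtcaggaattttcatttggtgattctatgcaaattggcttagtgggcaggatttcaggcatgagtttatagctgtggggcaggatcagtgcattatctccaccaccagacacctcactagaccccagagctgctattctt
Alb: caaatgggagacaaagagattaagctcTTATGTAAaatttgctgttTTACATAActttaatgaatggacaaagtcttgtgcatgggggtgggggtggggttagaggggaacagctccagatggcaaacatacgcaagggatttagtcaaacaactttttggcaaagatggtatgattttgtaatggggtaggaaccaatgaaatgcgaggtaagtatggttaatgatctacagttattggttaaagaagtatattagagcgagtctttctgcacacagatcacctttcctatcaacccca

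A promoter sequence was found for 48 of the 63 genes and for 10201 of all genes tested. The E-box CACGTG occurred in 7 of the 48 (14.6%), namely Cipc, Dgka, Gm31812, Gpx6, Ildr2, Pcgf2 and Ppp1r9a, and in 11.7% of the promoters of all genes tested. A D-box, searched on both strands as TTATGTAA or TTACGTAA, occurred in 4 of the 48 (8.3%), namely Alb, Ces1e, Ces1g and Slc17a1, and in 92 of 10201 (0.9%). The direct repeat bound by PPARα and its partner RXR, spelled with 1 free base between the copies, was in 0 of the 48 and in 6 of 10201. These are matches of letters in a short window, with no test. Ces1e and Ces1g are adjoining genes of 1 family and near copies, so their D-box matches may not be independent.

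Library totals ran from 17369927 to 22076113 counts, so depth differed little between groups. Npas2, a partner of BMAL1, separated the genotypes in the 68 libraries. It stood at up to 10.0 CPM (counts scaled to a library total of 1000000) in SPF WT and 12.9 in GF WT. In LKO mice it stood at 14.4 to 36.7 in SPF LKO and 16.8 to 44.7 in GF LKO. In SPF mice this separation rests on the library rule, because libraries labelled SPF LKO with low Npas2 were set aside. Arntl itself is no check of the deletion, because the counts cover the whole gene and do not separate the floxed exon. Its level cycled from 0.624 to 39.9 CPM in SPF WT and from 0.331 to 40.9 in GF WT, against 8.50 to 16.6 in SPF LKO and 7.02 to 13.5 in GF LKO. The rule leaves out 4 libraries that stood against their labels on these and related genes, and it was set with earlier results known. The library labelled SPF LKO at ZT14, replicate 2, had 0.220 CPM of Npas2 and that labelled SPF LKO at ZT18, replicate 1, had 1.81. The library labelled SPF WT at ZT14, replicate 3, had 371 CPM of Cyp3a11, against 5057 and 5469 in the other two of its group and time. In the library labelled GF WT at ZT6, replicate 3, the same gene stood at 6102, against 746 and 588. With all 72 libraries 85 genes were called, 46 of them among the 63, and the genes that lost their call are named where they are described. Ranges, medians and statements that groups were apart or overlapped cover the 68 libraries alone, so a separation of groups can rest on the rule.

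The genotype effects themselves were broad, with 4574 genes (33.9%) called between LKO and WT in SPF mice and 4784 (35.5%) in GF mice. Of the 3333 genes called in both, 3332 had the same sign, and across the 13479 genes the SPF and GF effects had a Pearson r of 0.897, a description across genes that are not independent. Microbial state also moved many genes, 5526 (41%) in WT mice and 5263 (39%) in LKO mice. A difference between the genotype effects was much rarer, and the 63 genes with one had differences of 0.23 to 3.94 on the log2 scale in size, with a median of 0.78. The size was at least 1 for 23 of them, 8 with a positive and 15 with a negative difference.

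**Figure D1:**
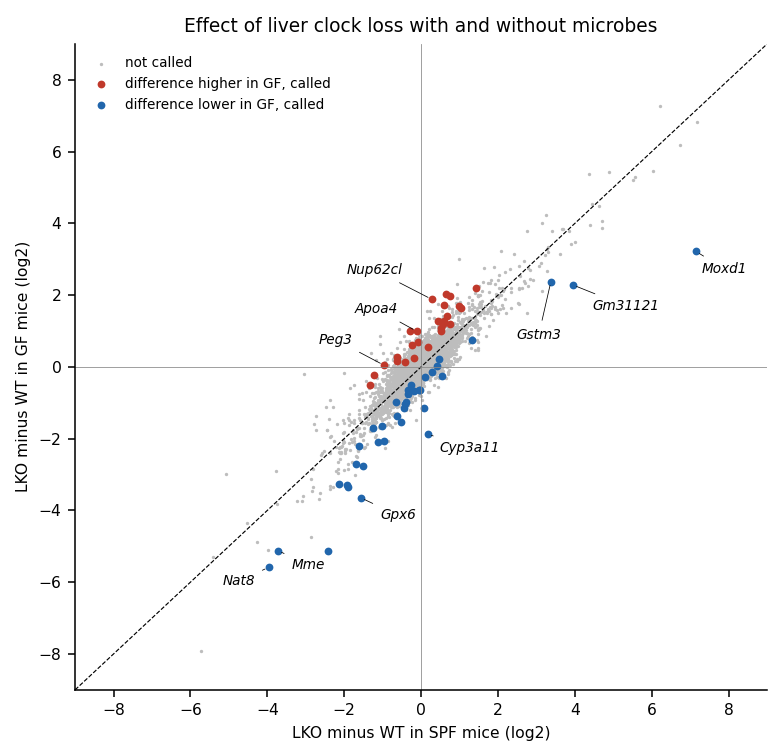
Genotype effect (log2 of LKO over WT) in SPF mice on the horizontal axis against the same effect in GF mice on the vertical axis, 1 point per gene tested, with the 63 genes that differed in colour. Most genes lie near the diagonal (Pearson r 0.897 across 13479 genes), while Cyp3a11 stands at 0.17 in SPF and -1.87 in GF mice.

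In 49 of the 63 genes (77.8%) the genotype effect was the larger one in GF mice in absolute size, against 53.1% of all genes tested and 56.4% of the 6025 genes with an effect called in either state. A genotype effect was called in GF mice for 55 of the 63 and in SPF mice for 52. The commonest form was a fall in both states that was deeper in GF mice, seen in 23 genes, followed by a rise in both that was larger in GF mice, seen in 14. A group of 5 genes (Moxd1, Gstm3, Gm31121, Cyp3a59 and Aldh9a1) rose with clock loss in both states but by less in GF mice, and Zdhhc2 fell in both but by less in GF mice. In 6 genes (Cyp3a11, Vnn3, Ces2a, Ropn1l, Slc17a8 and Cdhr5) a fall was called in GF mice alone, and in 5 (Apoa4, Nup62cl, Pcgf2, Acyp2 and Mast1) a rise was. Effects called in SPF mice alone were falls in Peg3, Fbf1, Dnajc12, Kcnq1 and Cyp39a1 and rises in F11, Tm7sf2 and Gm31812. Dgka was called in both states with opposite signs, at -0.18 in SPF and 0.24 in GF mice. The direction of the difference was the same at all 6 ZT for 53 of the 63 genes and at 5 of them for the other 10.

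Read from the side of microbes, the same 63 genes showed how the effect of GF against SPF housing depended on genotype. Of the 37 with a negative difference, 16 (among them Ces1f, Vnn3, Nat8, Mme and Me1) were called lower in GF mice among LKO alone, and 7 (Gpx6, Eif4e3, Ces1g, Ropn1l, Galm, Alb and Gm31812) were called higher in GF mice among WT alone. A further 4 (Ces1e, Ehhadh, Cipc and Hsd17b11) were higher in GF mice among WT and lower among LKO. Of the 26 with a positive difference, 14 (among them Nup62cl, Fbf1, Kif5a and Mtmr11) were called lower in GF mice among WT alone, and 2 (Tmprss2 and Slc17a1) were lower among WT and higher among LKO.

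The smallest p belonged to Cyp3a11, the main drug-oxidizing cytochrome P450 of the mouse CYP3A family and a classic target of the xenobiotic receptor PXR. Cyp3a11 (ENSMUSG00000056035, chr5:145854426-145879964, minus strand, mm10) stood at 4267 to 7458 CPM in SPF WT livers (median 5249) and at 4571 to 8064 in SPF LKO livers (median 6069). In GF mice it stood at 518 to 1122 CPM in WT (median 598) and at 120 to 347 in LKO livers (median 173). In the 68 libraries the genotypes overlapped in SPF mice and were apart in GF mice, and both GF groups lay below every SPF library. This separation rests on the library rule, because the libraries set aside at 371 CPM (labelled SPF WT) and 6102 CPM (labelled GF WT) lie in the range of the other microbial state or near it. The genotype effect on Cyp3a11 was 0.17 ± 0.11 (SE) on the log2 scale in SPF mice (adjusted p = 0.241) and -1.87 ± 0.11 in GF mice (adjusted p = 5.58e-23), a 3.67-fold lower level. The difference of -2.05 ± 0.16 had an adjusted p of 9.32e-16, and with all 72 libraries it was -2.51 (adjusted p = 3.73e-07). Put the other way, GF mice had 8.05-fold less Cyp3a11 than SPF mice with an intact clock and 33.2-fold less without one. At the 6 ZT the difference ran from -2.40 at ZT10 to -1.69 at ZT18, so every time of day showed it.

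The neighbouring Cyp3a59, another member of the CYP3A family, lies 199293 bases from Cyp3a11 on chromosome 5 and was higher in LKO than in WT livers in both microbial states. It ranged from 33 to 64.6 CPM in SPF WT (median 44), from 76.1 to 177 in SPF LKO (median 115), from 13.1 to 25.3 in GF WT (median 17.1) and from 22.8 to 42.6 in GF LKO livers (median 28.4). Clock loss raised it by 1.33 in SPF and by 0.74 in GF mice on the log2 scale, a difference of -0.59 ± 0.12 (adjusted p = 0.00185). The 2 SPF groups were apart from each other while the 2 GF groups overlapped, and GF libraries lay below SPF libraries in each genotype. Reads that align to several places were not counted, so levels within the CYP3A cluster are uncertain where its members are near identical.

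Ces2a, a carboxylesterase of the endoplasmic reticulum, had the same form as Cyp3a11 at a smaller size. Its range was 385 to 544 CPM in SPF WT (median 463), 426 to 581 in SPF LKO (median 493), 253 to 382 in GF WT (median 322) and 218 to 327 in GF LKO livers (median 255). The genotype effect was 0.09 in SPF mice (adjusted p = 0.174) and -0.29 in GF mice (adjusted p = 3.16e-06), a difference of -0.39 ± 0.07 (adjusted p = 0.00131). Genotypes overlapped within each state, whereas GF and SPF libraries were apart in both genotypes. Of 36 tested genes on the list of CYP2 and CYP3 drug-metabolizing enzymes and their receptors, these 3 were called and none had a positive call, and the list's median difference was -0.14 against 0.00 for all genes tested, with 29 of 36 below 0. The receptors PXR (Nr1i2) and CAR (Nr1i3), singled out after their values were seen, had differences of 0.02 (adjusted p = 0.982) and 0.21 (adjusted p = 0.768).

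A set of 4 carboxylesterase genes of the Ces1 family, enzymes that hydrolyse esters including triglycerides and ester drugs, forms an unbroken run on chromosome 8 (chr8:93166068-93337308, mm10), and all of them fell further with clock loss in GF mice. Gaps between Ces1d, Ces1e, Ces1f and Ces1g were 3380, 26617 and 22622 bases. The genes are near copies of each other, and reads shared between them were dropped in counting, so each level is uncertain to that extent.

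Ces1e (ENSMUSG00000061959) had 182 to 341 CPM in SPF WT (median 247), 85.0 to 153 in SPF LKO (median 115), 265 to 406 in GF WT (median 341) and 54.4 to 115 in GF LKO livers (median 72.7). Genotypes were apart in both microbial states, and absence of microbes went with more Ces1e in WT (0.44) but less in LKO mice (-0.56). The genotype effect deepened from -1.11 in SPF to -2.10 in GF mice, a difference of -0.99 ± 0.12 (adjusted p = 2.27e-08). Its promoter is the first of the D-box sequences printed above.

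Ces1f ranged from 479 to 732 CPM in SPF WT (median 592), 343 to 571 in SPF LKO (median 385), 505 to 736 in GF WT (median 610) and 152 to 351 in GF LKO livers (median 228). Here the WT groups were alike in range and only GF LKO stood clear of its control, giving a difference of -0.73 ± 0.11 (adjusted p = 4.47e-05). Ces1d, a triacylglycerol hydrolase, had medians of 1402 (WT) and 413 (LKO) CPM in SPF mice and of 1300 and 185 in GF mice, and its difference was -1.02 ± 0.20 (adjusted p = 0.00185), or -1.52 with all 72 libraries. Ces1g, whose promoter also holds a D-box, had medians of 328 (WT) and 243 (LKO) CPM in SPF mice and of 455 and 211 in GF mice and a difference of -0.70 ± 0.13 (adjusted p = 0.00146).

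**Figure D2:**
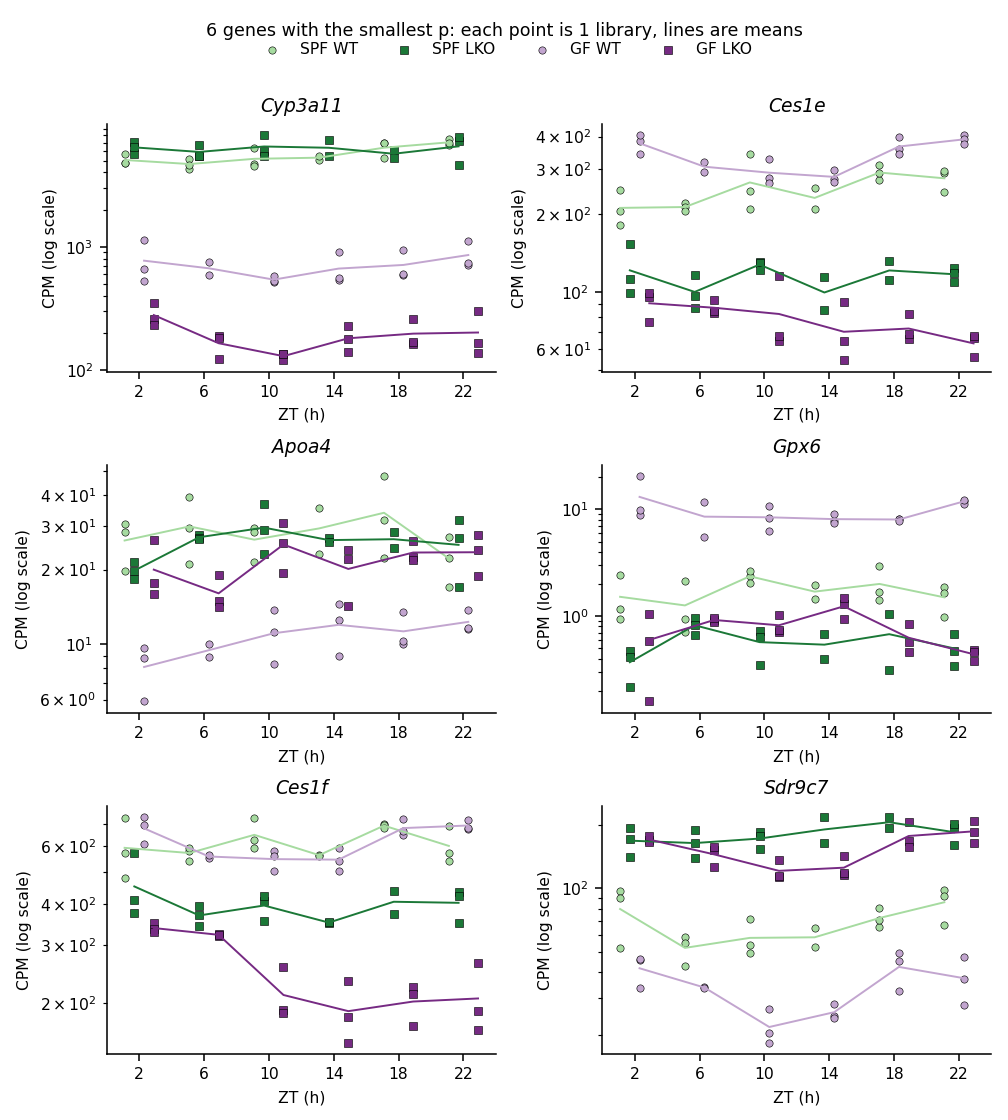
CPM of the 6 genes with the smallest p in each library (points) against ZT in hours (log scale for CPM, points set slightly apart sideways by group), with group means joined by lines, for WT and LKO mice of both microbial states. For Cyp3a11 the GF LKO libraries (120 to 347 CPM) lie below all GF WT libraries (518 to 1122 CPM), while the 2 SPF genotypes overlap.

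Enzymes that conjugate drugs and their metabolites gave 3 calls among 50 tested, all with a negative difference, against 0.275% of all genes tested. The median of this list was -0.10, with 31 of 50 below 0. Nat8, which acetylates cysteine conjugates in the last step of mercapturate formation, had 8.55 to 38.9 CPM in SPF WT (median 21.4), 0.732 to 2.22 in SPF LKO (median 1.42), 15.5 to 44.9 in GF WT (median 25.4) and 0.104 to 1.28 in GF LKO livers (median 0.548). With clock loss Nat8 fell by 3.97 in SPF and fell by 5.59 in GF mice on the log2 scale, a difference of -1.62 ± 0.28 (adjusted p = 0.000242), and genotypes were apart in both states. With all 72 libraries the Nat8 difference was -2.93 (adjusted p = 0.000235), and it was -2.33 with SPF LKO at ZT14, replicate 2, alone put back and -2.26 with SPF LKO at ZT18, replicate 1.

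Gstm3, a glutathione S-transferase of the mu class, went the other way with genotype, from 9.85 to 49.6 CPM in SPF WT (median 25.1) to 205 to 548 in SPF LKO (median 263), and from 21.2 to 55.6 in GF WT (median 32.8) to 104 to 260 in GF LKO livers (median 159). Its rise was 3.37 in SPF and 2.38 in GF mice, a difference of -1.0 ± 0.19 (adjusted p = 0.00146) that was -0.83 with all 72 libraries (adjusted p = 0.120). The mu-class genes are similar in sequence, and their levels are uncertain in the same way. Gstm2, looked at after its values were seen, rose by 2.91 and 2.41 and had a difference of -0.50 (adjusted p = 0.0938).

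Ugt1a9, a glucuronosyltransferase, had medians of 43 (WT) and 9.59 (LKO) CPM in SPF mice and of 24.7 and 2.17 in GF mice. It fell by 2.13 in SPF and fell by 3.27 in GF mice on the log2 scale, and the difference was -1.14 ± 0.25 (adjusted p = 0.0102). On the CPM scale the drop was larger in SPF mice, and the direction of the Ugt1a9 difference is therefore a statement about ratios. The Ugt1a genes share their last exons, which leaves Ugt1a9 counts uncertain.

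The same dependence on scale held for 6 of the 63 genes (Gm31121, Mme, Moxd1, Slc16a7, Spsb4 and Ugt1a9), whose difference took the other sign when group means of CPM were subtracted. For the other 57 the sign was the same on both scales.

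Me1, the cytosolic malic enzyme that supplies NADPH for fatty acid synthesis, had 81.6 to 206 CPM in SPF WT (median 109), 38.6 to 167 in SPF LKO (median 79.8), 74.7 to 297 in GF WT (median 134) and 28.4 to 82.7 in GF LKO livers (median 40.2). All 4 groups overlapped over the day, and the genotype effect was -0.53 in SPF against -1.53 in GF mice, a difference of -1.0 ± 0.18 (adjusted p = 0.00062). By time of day the Me1 difference was -1.53 at ZT22 and -0.15 at ZT14, with an unadjusted p of 0.120 for its change over ZT. Me1 was the 1 call among 21 tested genes of de novo lipogenesis, whose median difference was -0.17.

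Acaa1b and Ehhadh, the thiolase and the bifunctional enzyme of peroxisomal fatty acid oxidation, are both on the PPARα target list (30 tested, median -0.07, but -0.21 with all 72 libraries, -0.14 without ZT2 and -0.01 without ZT6) and on the peroxisome list (54 tested, median -0.10) and were the 2 calls of each. Acaa1b had medians of 736 (WT) and 369 (LKO) CPM in SPF mice and of 737 and 231 in GF mice, with genotypes apart in both states and a difference of -0.64 ± 0.12 (adjusted p = 0.00177). Ehhadh had medians of 496 (WT) and 380 (LKO) CPM in SPF mice and of 655 and 314 in GF mice and a difference of -0.58 ± 0.12 (adjusted p = 0.00485), with overlapping genotypes in both states. In mitochondrial fatty acid oxidation 0 of 26 genes were called, against 0.467% of all genes tested. Of the 26 differences 25 were below 0 (median -0.11, against 6744 of 13479 below 0 among all genes). Vnn3, a pantetheinase of coenzyme A turnover, ranged from 52.7 to 84.6 CPM in SPF WT, from 46.7 to 82.1 in SPF LKO, from 55.5 to 86.4 in GF WT and from 33 to 56.5 in GF LKO. Its fall was called in GF mice alone (-0.64, against -0.04 in SPF mice with adjusted p = 0.743), a difference of -0.60 ± 0.10 (adjusted p = 0.000213). Hsd17b11, a lipid-droplet dehydrogenase, had a difference of -0.32 ± 0.08 (adjusted p = 0.0406).

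Tm7sf2, a sterol reductase of cholesterol synthesis, had 86.1 to 172 CPM in SPF WT (median 116), 98.2 to 196 in SPF LKO (median 150), 194 to 273 in GF WT (median 232) and 163 to 295 in GF LKO livers (median 210). It rose with clock loss by 0.27 in SPF mice (adjusted p = 0.00235) and stood at -0.15 in GF mice (adjusted p = 0.0862), a difference of -0.43 ± 0.10 (adjusted p = 0.0229) that was -0.37 with all 72 libraries (adjusted p = 0.113) and lost its call without SPF LKO at ZT10, replicate 1 (-0.38, adjusted p = 0.0536). Tm7sf2 was the 1 call among 24 tested genes of cholesterol synthesis and uptake.

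That list had the median farthest from 0 of all 24 pathway lists, at -0.41, with 23 of 24 genes below 0. By the test, 12 of the 24 rose and 3 fell with clock loss in SPF mice, whereas in GF mice 0 rose and 5 fell. Among all 13479 genes tested 2297 rose and 2277 fell in SPF mice, and 2362 rose and 2422 fell in GF mice. The list's medians of the genotype effect were 0.27 in SPF and -0.14 in GF mice. Members looked at after their values were seen did not pass the test, with -0.76 ± 0.23 for Hmgcs1 (adjusted p = 0.165), -0.83 ± 0.27 for Sqle (adjusted p = 0.194) and -0.68 ± 0.21 for Idi1 (adjusted p = 0.171). The median moved to -0.20 without ZT2 and to -0.26 with all 72 libraries, and it stayed between -0.44 and -0.34 when each library was left out in turn. Cyp39a1, which hydroxylates oxysterols on the way to bile acids, had medians of 39.1 (WT) and 15.4 (LKO) CPM in SPF mice and of 19.3 and 12.6 in GF mice. It fell by 1.24 in SPF mice and stood at -0.23 in GF mice, a difference of 1.01 ± 0.26 (adjusted p = 0.0427) that was just inside the threshold and lost its call in 31 of the 68 fits without 1 library. With all 72 libraries the Cyp39a1 difference was 0.53 (adjusted p = 0.698).

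Apoa4, an apolipoprotein of triglyceride-rich particles, had 17.1 to 47.5 CPM in SPF WT (median 28.2), 17 to 36.6 in SPF LKO (median 26.7), 5.90 to 14.5 in GF WT (median 10.3) and 14.1 to 30.7 in GF LKO livers (median 22.0). GF WT libraries lay below every SPF WT library, and GF LKO livers overlapped with both SPF groups. The genotype effect on Apoa4 was -0.12 with microbes (adjusted p = 0.417) and 0.99 without them (adjusted p = 9.55e-12), a difference of 1.11 ± 0.15 (adjusted p = 2.36e-06). With all 72 libraries it was 0.81 (adjusted p = 0.0652). Apoa4 was the 1 call among 36 tested apolipoproteins and secreted metabolic hormones.

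Alb encodes albumin, the most abundant transcript here, and ranged from 59781 to 106182 CPM in SPF WT (median 83442), from 24814 to 50530 in SPF LKO (median 34318), from 86135 to 136295 in GF WT (median 103987) and from 25490 to 43407 in GF LKO livers (median 32119). It fell by 1.24 in SPF and fell by 1.70 in GF mice on the log2 scale. The difference was -0.46 ± 0.11 (adjusted p = 0.0225) and became -0.71 with all 72 libraries. In the 68 libraries genotypes were apart in both states. Of the libraries set aside, SPF LKO at ZT14, replicate 2, had 7.93% of counts in its most abundant gene and that at ZT18, replicate 1, had 10.0%. Kept libraries had 2.91% to 5.22% in SPF LKO and 6.29% to 9.74% in SPF WT. The Alb call was lost without SPF LKO at ZT2, replicate 2. LKO mice carry the Albumin-Cre transgene and WT mice do not, and in bulk RNA fewer cells of a type and less RNA per cell cannot be told apart. F11, coagulation factor XI, had medians of 83.5 (WT) and 115 (LKO) CPM in SPF mice and of 128 and 129 in GF mice. F11 rose by 0.42 in SPF mice and stood at 0.02 in GF mice, a difference of -0.40 ± 0.08 (adjusted p = 0.00305) that became -0.24 with all 72 libraries (adjusted p = 0.607).

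**Figure D3:**
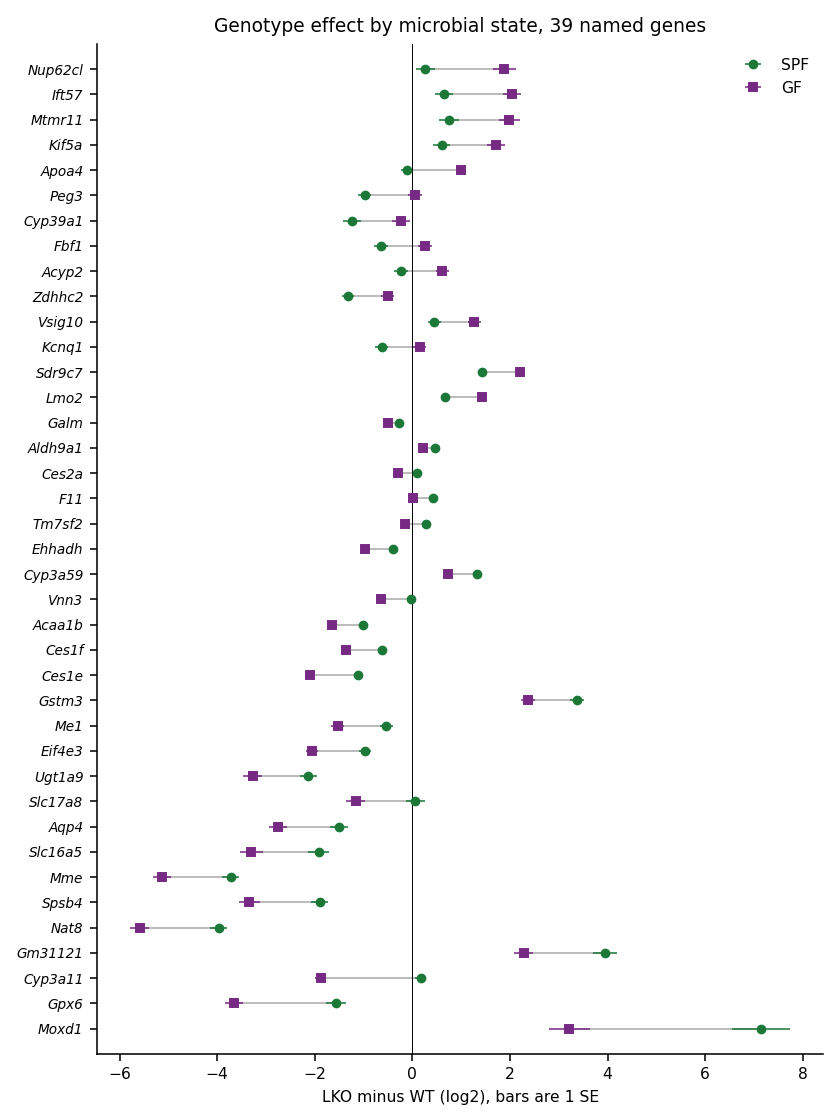
Genotype effect (log2 of LKO over WT, ± SE) in SPF and in GF mice for the named genes that differed, ordered by the difference. Genes with a negative difference, such as Nat8 (-3.97 in SPF, -5.59 in GF mice), have the GF point to the left of the SPF point, and those with a positive difference, such as Sdr9c7 (1.43 and 2.21), have it to the right.

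Mme, the membrane peptidase neprilysin, had 52.7 to 147 CPM in SPF WT (median 84.0), 2.12 to 10.9 in SPF LKO (median 5.87), 35.2 to 114 in GF WT (median 74) and 0.815 to 3.49 in GF LKO livers (median 2.04). Genotypes were far apart in both states, at -3.72 and -5.12, and the Mme difference was -1.40 ± 0.24 (adjusted p = 0.000242), or -2.42 with all 72 libraries (adjusted p = 0.000416). Gpx6, a glutathione peroxidase whose promoter holds the E-box shown above, had 0.707 to 2.92 CPM in SPF WT (median 1.67), 0.218 to 1.04 in SPF LKO (median 0.553), 5.46 to 20.5 in GF WT (median 8.91) and 0.159 to 1.48 in GF LKO livers (median 0.79). The GF WT group stood above all other libraries, and the effect on Gpx6 deepened from -1.57 to -3.65, a difference of -2.08 ± 0.29 (adjusted p = 2.78e-06). Eif4e3, a cap-binding relative of the translation factor eIF4E, followed the same form, with medians of 5.23 (WT) and 2.89 (LKO) CPM in SPF mice and of 12.6 and 2.77 in GF mice and a difference of -1.08 ± 0.17 (adjusted p = 7.33e-05).

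Aqp4, a water channel, had medians of 9.54 (WT) and 2.96 (LKO) CPM in SPF mice and of 9.57 and 1.41 in GF mice and a difference of -1.25 ± 0.25 (adjusted p = 0.00305). Slc16a5, a monocarboxylate transporter, had medians of 6.53 (WT) and 1.41 (LKO) CPM in SPF mice and of 6.97 and 0.531 in GF mice and a difference of -1.39 ± 0.33 (adjusted p = 0.0185), or -2.12 with all 72 libraries. Slc17a8, the vesicular glutamate transporter VGLUT3, had medians of 28.4 (WT) and 30.4 (LKO) CPM in SPF mice and of 28.6 and 15.3 in GF mice with wide overlap of all groups, and its difference was -1.22 ± 0.27 (adjusted p = 0.00842). Spsb4, an adaptor of ubiquitin ligases, had medians of 4.03 (WT) and 1.03 (LKO) CPM in SPF mice and of 2.63 and 0.213 in GF mice, with genotypes apart in both states, and a difference of -1.44 ± 0.29 (adjusted p = 0.00281). In these 4 genes the WT medians of both microbial states lay closer to each other, as ratios, than the LKO medians did.

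Moxd1, a relative of dopamine beta-hydroxylase and the 1 call among 30 tested male-biased liver genes, had the largest difference by size and also the widest spread. It ranged from 0 to 4.15 CPM in SPF WT (median 0.165), from 7.77 to 209 in SPF LKO (median 55.5), from 2.22 to 139 in GF WT (median 42.8) and from 129 to 567 in GF LKO livers (median 432). Both clock loss and absence of microbes thus went with more Moxd1, and the log2 rise with clock loss was 7.15 in SPF and 3.21 in GF mice, a difference of -3.94 ± 0.73 (adjusted p = 0.000894). With SPF WT libraries at or near 0 the SPF ratio depends on the prior count of the fit, and on the CPM scale the rise was 75.5 in SPF and 356 in GF mice, the opposite order. With all 72 libraries the Moxd1 difference was -1.09 (adjusted p = 0.839), and putting back the library labelled SPF WT at ZT14, replicate 3, alone gave -1.41 (adjusted p = 0.770). Gm31121, a noncoding transcript, had the same form with medians of 0.232 (WT) and 3.68 (LKO) CPM in SPF mice and of 0.961 and 5.32 in GF mice and a difference of -1.67 ± 0.32 (adjusted p = 0.00151), or -1.01 with all 72 libraries (adjusted p = 0.433).

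Aldh9a1, an aldehyde dehydrogenase of carnitine synthesis, and Galm, the galactose mutarotase, were the 2 calls among 44 tested genes of glycolysis and gluconeogenesis and had small differences with tight groups. Aldh9a1 had medians of 253 (WT) and 360 (LKO) CPM in SPF mice and of 358 and 418 in GF mice and a difference of -0.24 ± 0.05 (adjusted p = 0.00524, or 0.282 with all 72 libraries). Galm had medians of 157 (WT) and 128 (LKO) CPM in SPF mice and of 178 and 127 in GF mice and a difference of -0.23 ± 0.05 (adjusted p = 0.00937). The median difference of that list was -0.02.

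Among the 26 genes with a positive difference, Sdr9c7, a short-chain dehydrogenase, was the strongest by p after Apoa4. Sdr9c7 had 42.6 to 98.4 CPM in SPF WT (median 65.2), 139 to 217 in SPF LKO (median 181), 18.5 to 49.1 in GF WT (median 33.4) and 112 to 208 in GF LKO livers (median 157). Its genotypes were apart in both states, at 1.43 and 2.21, and the difference was 0.78 ± 0.12 (adjusted p = 4.47e-05). Lmo2, a transcriptional cofactor best known in blood and endothelial cells, had medians of 4.06 (WT) and 6.46 (LKO) CPM in SPF mice and of 3.84 and 9.97 in GF mice, with GF genotypes apart, and a difference of 0.75 ± 0.12 (adjusted p = 4.47e-05). The summed level of 7 endothelial markers had medians of 202 (WT) and 201 (LKO) CPM in SPF mice and of 199 and 199 in GF mice.

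Ift57, a component of intraflagellar transport, had 0.26 to 0.98 CPM in SPF WT, 0.517 to 1.48 in SPF LKO, 0.284 to 1.52 in GF WT and 1.19 to 4.07 in GF LKO livers. The GF LKO group was the high one and overlapped SPF LKO and GF WT at its lower end, and the Ift57 difference was 1.40 ± 0.26 (adjusted p = 0.00106). Kif5a, a kinesin heavy chain, had medians of 1.14 (WT) and 1.30 (LKO) CPM in SPF mice and of 0.548 and 1.99 in GF mice and a difference of 1.11 ± 0.26 (adjusted p = 0.0184). Mtmr11, a myotubularin relative, had a difference of 1.24 ± 0.30 (adjusted p = 0.0246), Nup62cl one of 1.62 ± 0.31 (adjusted p = 0.00131), Vsig10, an immunoglobulin-domain protein, one of 0.82 ± 0.19 (adjusted p = 0.0153) and Acyp2, an acylphosphatase, one of 0.85 ± 0.19 (adjusted p = 0.0129). The Acyp2 call was lost with all 72 libraries (adjusted p = 0.231).

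A smaller set fell with clock loss in SPF mice and by less, or not by the test, in GF mice, where WT medians were lower. Peg3, an imprinted zinc-finger gene, had 5.63 to 20.5 CPM in SPF WT (median 9.69), 3.05 to 7.16 in SPF LKO (median 5.31), 1.66 to 6.16 in GF WT (median 3.23) and 1.76 to 5.0 in GF LKO livers (median 3.35). The genotype effect on Peg3 was -0.97 in SPF and 0.05 in GF mice, a difference of 1.02 ± 0.20 (adjusted p = 0.00136). Fbf1, a centriole protein, was at -0.64 and 0.26 (difference 0.90 ± 0.20, adjusted p = 0.0102), and Kcnq1, a potassium channel subunit, at -0.63 and 0.15 (difference 0.78 ± 0.19, adjusted p = 0.0287). Zdhhc2, a palmitoyltransferase, fell by 1.32 in SPF and fell by 0.50 in GF mice (difference 0.82 ± 0.18, adjusted p = 0.0109). With all 72 libraries none of these 4 was called, with adjusted p of 0.0981 for Peg3, 0.0781 for Fbf1, 0.0829 for Kcnq1 and 0.433 for Zdhhc2, and Kcnq1 also lost its call without SPF LKO at ZT2, replicate 1 (adjusted p = 0.0521), or GF LKO at ZT2, replicate 3 (adjusted p = 0.0555).

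The remaining members fall outside the rule by which genes were named and are given more briefly. Positive differences of 0.38 to 1.30 on the log2 scale belonged to Pyroxd2, Itih5, Ppp1r9a, Pcgf2, Plekhb2, Tmprss2, Dnajc12, Dgka, Mast1, Scamp5 and Slc17a1. Negative differences of -0.30 to -2.69 belonged to Atp9a, Ropn1l, Ildr2, Slc16a7 (-0.95 with all 72 libraries), Cipc, E030018B13Rik, Cdhr5 and Gm31812, besides Alb, Ces1d, Ces1g and Hsd17b11 described above. Cipc, which encodes a repressor that binds CLOCK and is not on the clock list, had medians of 48.4 (WT) and 38.4 (LKO) CPM in SPF mice and of 57.4 and 35.5 in GF mice and a difference of -0.30 ± 0.07 (adjusted p = 0.012). Of these genes Pcgf2, Dnajc12, Mast1 and Gm31812 were not called with all 72 libraries. Calls close to the threshold were lost in some of the 68 fits without 1 library, in 41 of them for Hsd17b11, 24 for Scamp5, 22 for Slc17a1, 10 for Gm31812 and 4 for Cdhr5.

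**Figure D4:**
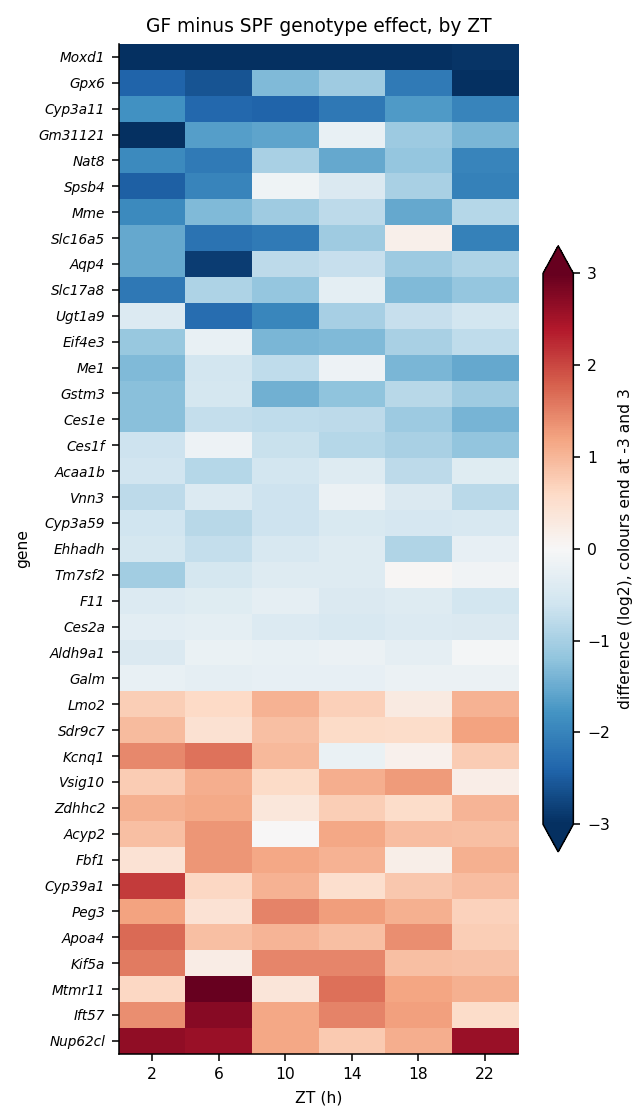
Difference in genotype effect (log2, GF minus SPF) at each ZT for the named genes that differed, 1 row per gene and 1 column per ZT, in colour from blue (negative) to red (positive) with the scale ending at -3 and 3. Cyp3a11 is negative at all 6 ZT (-1.69 to -2.40) and Apoa4 positive at all 6 (0.75 to 1.70).

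The change of the difference over the 6 ZT was tested in a model with 24 means, and 0 of 13479 genes (0.0%) passed, with 712 (5.28%) at an unadjusted p under 0.05 and a lowest adjusted p of 0.424. DESeq2's likelihood ratio test called 9 genes for the same question (among them Tef, Lgalsl, Mtnr1a, Gpd1, Srgap3, Dbp, Loxl4 and Slc30a10), and limma-voom called 0. Dbp, the D-box activator, had differences of 1.81 at ZT2, -1.44 at ZT6 and -1.19 at ZT10. Its unadjusted p over the 6 ZT was 0.000464 and did not pass after adjustment. Dbp was among the genes on which the libraries set aside stood out, so this p is no independent support for a change over ZT. At ZT6 the library set aside, labelled GF WT, had 16.3 CPM of Dbp, against 59.5 and 43.1 in those kept. At ZT14 the library set aside and labelled SPF WT had 67.5 CPM, against 7.72 and 4.25 in those kept. Of the 63 genes, 5 had an unadjusted p under 0.05 for a change over ZT.

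Genes on the list of clock activators and repressors did not pass the test of the difference, while Cipc, which is not on it, did. Among the 19 listed 0 were called in either direction, against 0.467% of all genes tested, so 0 calls says little here. The median difference was -0.12 with 13 of 19 below 0, and it moved between -0.23 (voom) and -0.02 (24 means) over the alternatives. Values of Arntl, Npas2 and Dbp rest in part on the library rule, because the libraries set aside stood out on these genes or on Cyp3a11. Arntl had a difference of -0.34 ± 0.43 (adjusted p = 0.902), Npas2 -0.55 ± 0.51 (adjusted p = 0.850), Nr1d1, which encodes the repressor REV-ERBα, -0.02 ± 0.39 (adjusted p = 0.996), and Dbp -0.23 ± 0.52 (adjusted p = 0.954). The standard errors of these cycling genes were larger than those of Cyp3a11 or Ces1e, and differences of the size of their errors were not detectable here. The narrowest estimate on the list was 0.15 ± 0.10 for Rora.

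None of the 8 glucose and fatty acid genes that the study follows was called either. With 0.467% of all genes called, 0 calls among 8 genes says little. Aldh3a2, a fatty aldehyde dehydrogenase, had the lowest p among them, with -0.32 ± 0.13 (adjusted p = 0.448), from genotype effects of -1.98 in SPF and -2.30 in GF mice. The fatty acid carrier Fabp1 stood at -0.27 ± 0.13 (adjusted p = 0.602), and the gluconeogenic enzymes Pck1, Pck2 and Fbp1 at 0.31 ± 0.28 (adjusted p = 0.846), 0.38 ± 0.18 (adjusted p = 0.588) and -0.03 ± 0.07 (adjusted p = 0.950). Eno1, an enzyme of glycolysis, stood at -0.17 ± 0.09 (adjusted p = 0.661), Ppara at -0.11 ± 0.15 (adjusted p = 0.917) and Cpt1a, which admits fatty acids to mitochondria, at -0.05 ± 0.11 (adjusted p = 0.948). The interval of Fbp1 is the tightest of them.

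Other pathway lists without a call differed in where their medians lay. With 0.467% of all genes called, 0 calls in a list of any of these sizes says little. The MHC antigen presentation list (25 tested) had a median of -0.17 with 24 of 25 below 0, which was -0.27 without SPF WT at ZT6, replicate 3, and -0.08 without ZT10, and H2-K1 and H2-T23, singled out after their values were seen, had -0.28 ± 0.08 (adjusted p = 0.121) and -0.26 ± 0.08 (adjusted p = 0.168). Cytosolic ribosomal proteins (73 tested) had a median of 0.11 with 66 of 73 above 0. Unsaturated and long-chain fatty acid synthesis (25 tested, median -0.12), amino acid catabolism and the urea cycle (57, -0.07), growth hormone, IGF and insulin signalling (27, -0.03), female-biased genes (22, -0.01), respiratory chain subunits (75, 0.00), endoplasmic reticulum stress (36, 0.05) and the cell cycle (26, 0.07) each had 0 calls. Interferon-stimulated genes (43 tested) also had 0 calls and a median of -0.09, which was 0.01 with all 72 libraries and -0.20 without SPF WT at ZT6, replicate 3. A single call each came from bile acid synthesis (Cyp39a1, of 27 tested) and from acute phase and complement proteins (F11, of 49), and 2 came from pyruvate metabolism (Me1 and Acyp2, of 32).

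**Figure D5:**
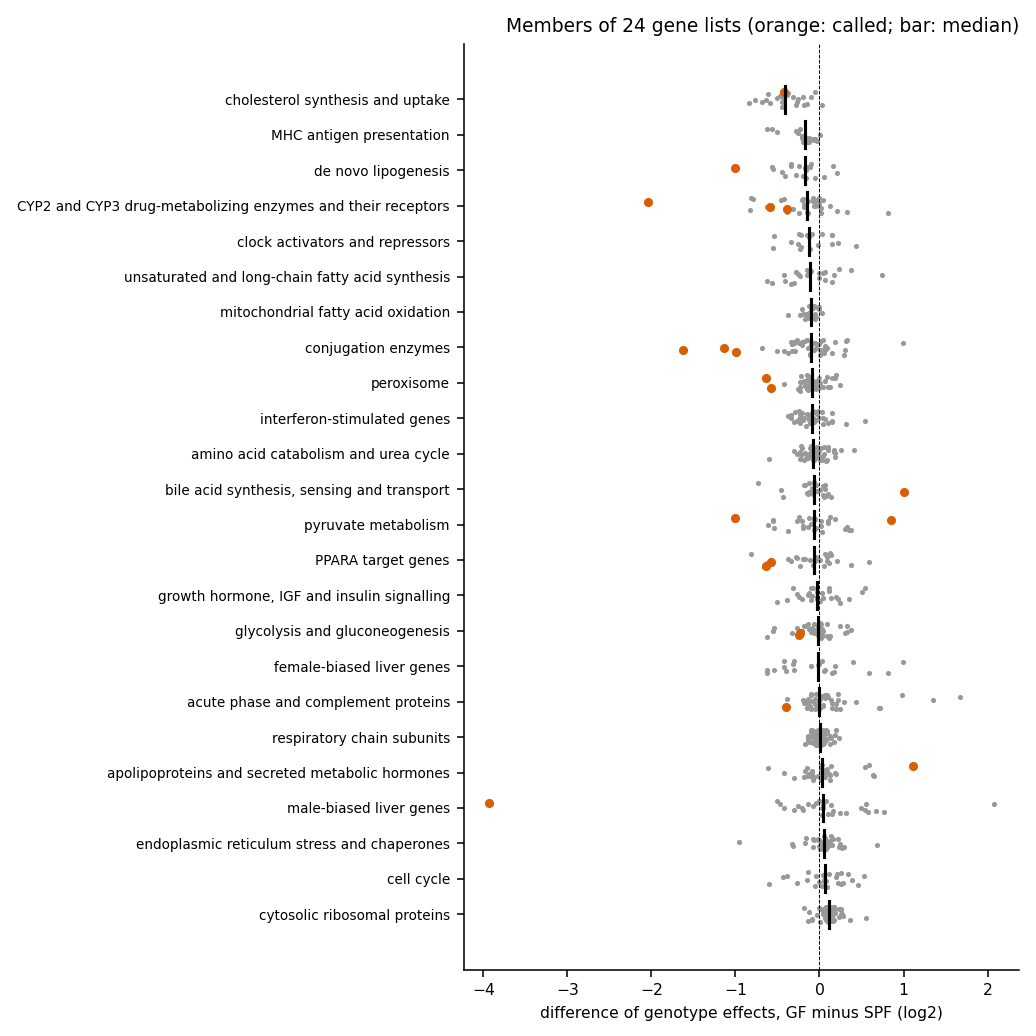
Difference in genotype effect (log2, GF minus SPF) of the tested genes of each pathway list, 1 point per gene with the list's median marked. The cholesterol list has its median at -0.41 and the cytosolic ribosomal proteins at 0.11, while the median over all genes tested was 0.00.

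Markers of liver cell types were read beside these results. Of all cell type markers tested, Alb alone was called. The 7 hepatocyte markers summed to medians of 109779 (WT) and 58467 (LKO) CPM in SPF mice and of 139882 and 61385 in GF mice, mostly through Alb. The 7 cholangiocyte markers summed to medians of 54.1 (WT) and 72.6 (LKO) CPM in SPF mice and of 44.3 and 90.7 in GF mice, mostly through Spp1 (difference 0.67, adjusted p = 0.205), and their ranges were 33.6 to 98.4, 56.6 to 136, 27.2 to 58.4 and 45.3 to 164. The 8 pancreatic acinar markers summed to medians of 28.1 (WT) and 82.2 (LKO) CPM in SPF mice and of 48.9 and 107 in GF mice, mostly through Cela1 (difference -0.29, adjusted p = 0.680), and 1 of the 8 was at 0 in all libraries. The part of these markers in the results was not tested. The share of counts from the mitochondrial chromosome had medians of 6.82% (WT) and 5.47% (LKO) in SPF mice and of 7.01% and 5.47% in GF mice.

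By position, 8 of the 63 genes lay on chromosome 8 and 8 on chromosome 10 (12.7% each), which hold 5.6% and 5.1% of the genes tested. None of the 63 was within 10 Mb of Arntl, where 125 tested genes (0.9%) lie, a share so small that the absence of a call there says little. Besides the Ces1 run and the CYP3A pair, neighbouring called genes less than 1 Mb apart were Vnn3 and Moxd1, Kif5a and Sdr9c7, and Sdr9c7 and Dgka on chromosome 10 and Slc16a5 and Fbf1 on chromosome 11. Protein-coding genes made up 61 of the 63, and 12275 of the 13479 genes tested.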

How the data were processed

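Livers of 72 mice were sequenced as bulk RNA. According to the submitters' processing notes and the methods, the authors aligned reads with STAR 2.6.1b to mm10 and made the deposited counts with featureCounts 2.0.0 and the Ensembl 97 annotation, without strand and without reads that align to several places, so antisense partners and near-identical genes share uncertainty. Counts were used as deposited. The 68 libraries of the rule were fitted with edgeR 4.0.16 in R 4.3.3 (filterByExpr with a minimum count of 10, TMM factors, quasi-likelihood F test, 4 groups and ZT as a factor), and p-values were adjusted over 13479 genes by Benjamini-Hochberg at 0.05. Change over ZT was tested in a model with 24 means. CPM used TMM-scaled totals. The fit was tested on simulated data.

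Groups came from the sample labels, to which the count columns were matched by the number that their names share with the sample descriptions, an inference on which every group value depends. Named genes were the 12 largest positive, the 12 largest negative and the 10 smallest p among called genes whose average log2 CPM was 0 or more, at most 4 called members per list, the clock genes and 8 study genes. Members, lists and the rule on libraries were chosen with earlier results of these data known. Alternatives were all 72 libraries, RLE factors, DESeq2 1.42.0, voom from limma 3.58.1, no filter, no ZT term, a replicate block, and leaving out each ZT and library. P-values reflect the spread between single mice, and the depth of 17369927 to 22076113 counts per library limits genes below about 1 CPM. Promoters came from RefSeq. A few individual genes are not reported here.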

Additional observations from a re-analysis of the deposited data

Results flagged for a closer look

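The 39 called genes that were named are listed because the test of the difference between the genotype effects in GF and SPF mice itself passed for each. Values are differences on the log2 scale, GF minus SPF. Listed genes of drug metabolism and conjugation, with Ces1e and Ces1f, gave Cyp3a11 -2.05, Cyp3a59 -0.59, Ces2a -0.39, Ces1e -0.99, Ces1f -0.73, Nat8 -1.62, Gstm3 -1.0 and Ugt1a9 -1.14. Listed genes of lipid, sterol and sugar metabolism, with Vnn3, gave Me1 -1.0, Acaa1b -0.64, Ehhadh -0.58, Vnn3 -0.60, Tm7sf2 -0.43, Cyp39a1 1.01, Aldh9a1 -0.24 and Galm -0.23. Apoa4 had 1.11 and F11 -0.40. The other negative differences were Moxd1 -3.94, Gpx6 -2.08, Gm31121 -1.67, Spsb4 -1.44, Mme -1.40, Slc16a5 -1.39, Aqp4 -1.25, Slc17a8 -1.22 and Eif4e3 -1.08. The other positive differences were Nup62cl 1.62, Ift57 1.40, Mtmr11 1.24, Kif5a 1.11, Peg3 1.02, Fbf1 0.90, Acyp2 0.85, Zdhhc2 0.82, Vsig10 0.82, Sdr9c7 0.78, Kcnq1 0.78 and Lmo2 0.75. The part that housing or colony had in any of them was not tested and cannot be told apart from microbial state.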

How the results depend on the processing

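The count of 63 genes became 97 with 24 means of equal weight, 111 without a filter on low counts, 41 without ZT2, 23 at a log2 size of at least 1 and 38 at an adjusted p of 0.01, and it ran from 58 to 76 without 1 library. Other alternatives gave 85 (all 72 libraries), 92 (DESeq2), 67 (voom), 62 (RLE), 60 (replicate block) and 48 (no ZT term). Of the 63, 54 were called in every fit without 1 library, 24 without each ZT in turn and 20 in every fit run, and 57 kept their call with the replicate block. No named and called gene reversed its direction in 3354 recomputed values, of which 136 lost their call. These fits share most of their libraries and all use log2 ratios, so a reversal was unlikely from the start. On the CPM scale 6 of the 63 took the other sign. The count for change over ZT, 0 by edgeR, was 9 by DESeq2, 662 without a filter (645 of them genes that the filter keeps), and 0 to 2 without 1 library, with 2 only without SPF WT at ZT2, replicate 2. In the fit without a filter the spread of most genes was set by the trend over all genes, not by their own values. Its median prior degrees of freedom were infinite, against 5.79 with the filter, so the 662 cannot be compared with the other counts. Same-numbered libraries showed little shared deviation (18 of 96 pairs with r over 0.1, median r -0.01), and the main fit did not pair mice by number. Whether same-numbered mice were handled together was not tested. The 4 libraries put back singly gave 60 to 73 genes, an alternative chosen after seeing the data.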
